A study of Mus musculus with 23 samples.

Results

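The genes that encode the pore-forming subunits of voltage-gated potassium, sodium and calcium channels were examined in whole hippocampus of 3xTg mice, a model of Alzheimer's disease (AD), and of wild-type (WT) mice. Members were all genes of the count table with a symbol of the Kcna, Kcnb, Kcnc, Kcnd, Kcnh, Kcnq, Scn (a-type) or Cacna1 series and a mean above 1 CPM (the count of a gene scaled to a fixed total per library) over all 23 libraries. Of 55335 genes in the table, 50 carried such a symbol and 41 were members. The rule used symbol and level and no difference between groups, but it was set with earlier results of these data known. The 9 genes below the level were Kcnh8, Cacna1s, Kcnq1, Cacna1f, Scn4a, Kcna10, Scn11a, Scn10a and Kcna7. Kcnh8 lay just outside with a mean of 0.861 CPM and Kcnh6 just inside with 1.18 CPM. All 41 members passed the filter on low counts in each of the 8 comparisons, so none is missing from the counts that follow.

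The study asked how the hippocampal transcriptome differs between 3xTg and WT mice and how it changes when SCD (stearoyl-CoA desaturase), which puts the first double bond into fatty acids, is inhibited in the brain. The 3xTg mice, B6;129-Psen1tm1MpmTg(APPSwe,tauP301L)1Lfa/Mmjax, have a mutant presenilin-1 knock-in and 2 mutant human transgenes, APP and tau, under the neuron-specific Thy1.2 element of the mouse. The WT mice, C57BL/6J x 129S1, lack all of these and were bred as a separate line, so transgenes and strain background cannot be told apart. All mice were female. The untreated groups, aged 8 months, were WT-8M and 3xTg-8M with 4 mice each. At 10 months all mice had been infused through a cannula into the cerebral ventricles for 28 days by osmotic pump. The infusate of the vehicle groups (WT-D, n = 4, and 3xTg-D, n = 4) held 0.8% DMSO in artificial cerebrospinal fluid. The infusate of the inhibitor groups (WT-S, n = 3, and 3xTg-S, n = 4) held 80 µM of the SCD inhibitor ab142089 in that vehicle. Age and infusion differ together between the 8-month and 10-month groups, so no test was made across them.

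Nearly all of these genes encode the protein that lines an ion-selective pore opened by a change in membrane voltage. Potassium channels assemble from 4 separate subunits, whereas a sodium or calcium channel pore is a single long protein with 4 linked domains. In hippocampal neurons Nav channels start the action potential, Kv1 channels of the axon and Kv4 channels of the dendrite limit excitability, Kv3 channels speed repolarisation in fast-spiking interneurons, Kv7 channels carry the slow M-current, and Cav channels admit the calcium that triggers transmitter release. In whole tissue, fewer cells of a type and less RNA per cell cannot be told apart.

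Gene counts per library ranged from 12.8M to 36.7M for the untreated mice and from 12.99M to 17.6M for the infused mice. The 6 neuron markers summed to between 8026 and 9978 CPM and the 8 markers of dentate, CA1 and CA3 neurons to between 1070 and 1516 CPM in every library, and none of these markers was at 0 anywhere. One library in each age stood apart in how steeply its counts rose with transcript length. The slope of log2 expression on log2 transcript length was 0.939 in 3xTg-8M replicate 4 against 1.04 to 1.11 in the other 8-month libraries. It was 0.963 in 3xTg-S replicate 2 against 1.02 to 1.11 in the other 10-month libraries. The members are long, with a median transcript of 7760 nt against 3339 nt over the genes tested, and 39 of the 41 were longer than that median. Their summed level was 3735 CPM in 3xTg-8M replicate 4 and 3897 CPM in 3xTg-S replicate 2. Counts over members are therefore given with and without these libraries, and with the trend of length and GC content removed.

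Levels were compared between genes as CPM per kb of transcript, as means over all 23 libraries. Kcnq3 (Kv7.3), a subunit of the channel that carries the M-current, had 20.5 CPM per kb, and Kcnq5 of the same family had 15.02 CPM per kb. Kcnd2 (Kv4.2), the dendritic A-type channel of pyramidal cells, reached 33.95 CPM per kb, above Kcnd3 at 17.6 and Kcnd1 at 1.72 CPM per kb. Of the Kv3 genes, Kcnc2 was at 25.4, Kcnc1 at 17.8 and Kcnc4 at 13.8 CPM per kb. Kcna2 and Kcna1, which together form axonal Kv1 channels, stood at 20.15 and 19.3 CPM per kb. Kcna6, Kcna4, Kcna3 and Kcna5 followed at 13.1, 7.37, 3.01 and 0.50 CPM per kb. Kcnb2, a delayed rectifier of the Kv2 family, was at 1.95 CPM per kb. In the Eag, Erg and Elk family Kcnh3 (Elk2) led at 16.7 CPM per kb, and Kcnh4 and Kcnh6 were lowest at 0.42 and 0.35.

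The sodium channels spanned a wide range of level. Scn2a (Nav1.2) was at 48.7 and Scn8a (Nav1.6) at 34.3 CPM per kb, both channels of the axon initial segment. Scn1a (Nav1.1), which serves mainly interneurons, was at 16.8 and Scn3a at 7.81 CPM per kb. Scn7a, whose product Nax senses sodium concentration and is not opened by voltage, was at 0.84 and Scn9a at 0.42 CPM per kb. Among calcium channels, Cacna1e (Cav2.3, R-type) led with 30.4 CPM per kb. The presynaptic channels Cacna1a (P/Q-type) and Cacna1b (N-type) had 14.3 and 11.4, and the L-type genes Cacna1c and Cacna1d had 8.14 and 5.41 CPM per kb. The T-type genes Cacna1h, Cacna1i and Cacna1g had 10.2, 6.09 and 4.99 CPM per kb. Levels per kb rest on the longest annotated transcript of each gene.

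**Figure D1:**
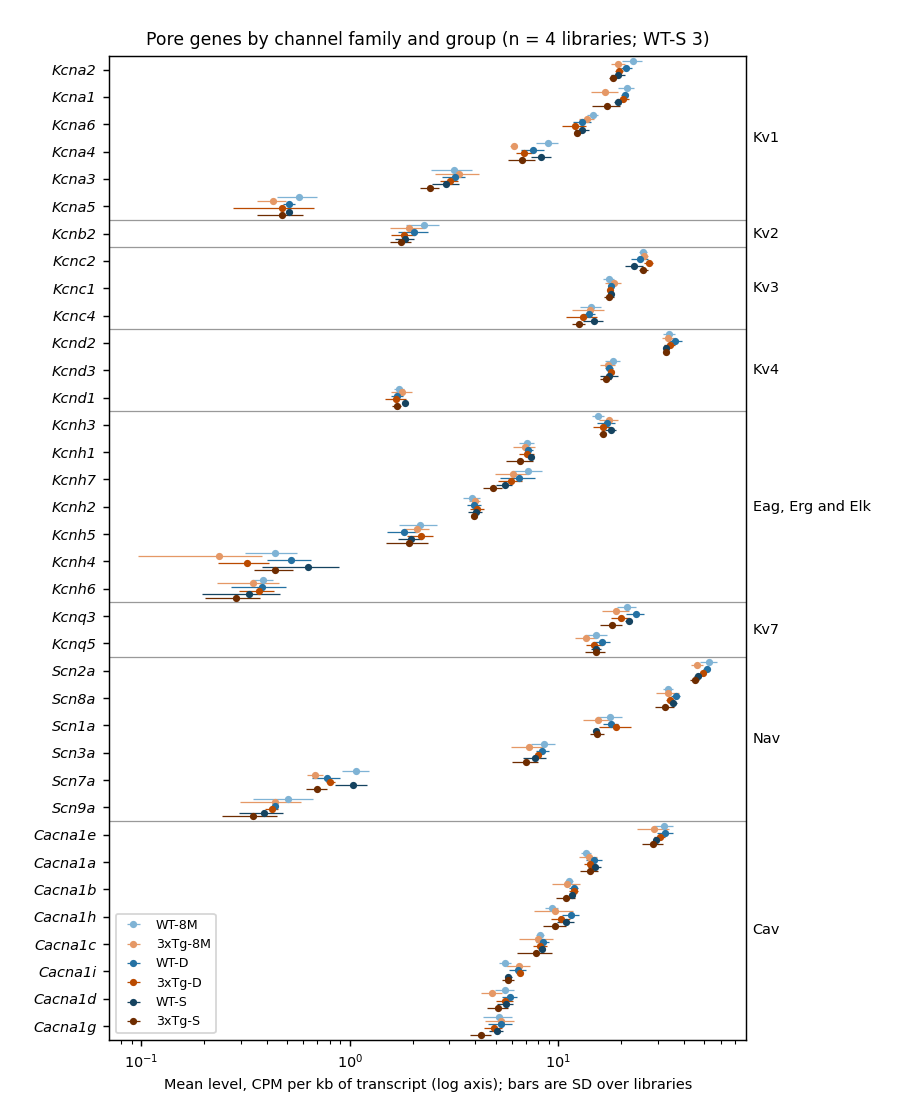
Mean level of 36 of the 41 members in CPM per kb of transcript (x axis, log scale), with genes on the y axis arranged by channel family, a coloured point for each of the 6 groups and a bar for the SD over its 3 or 4 libraries. The points of a gene lie close together beside the span between genes, such as that from 48.7 CPM per kb for Scn2a to 0.42 for Scn9a as means over all libraries.

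Differences between groups were small beside those between genes. The ratio of the highest to the lowest of the 6 group means was 1.05 for Kcnh2 and 1.06 for Kcnc1. It reached 1.46 for Kcna4, 1.48 for Kcnh7, 1.57 for Scn7a and 2.67 for Kcnh4. Kcnd2 was at 169, 179, 164 and 189 CPM in WT-8M and 176, 163, 187 and 164 CPM in 3xTg-8M. At 10 months its values were 199.6, 169.9, 198 and 175 CPM in WT-D, 180.2, 182, 160.1 and 182 in 3xTg-D, 173, 168 and 168 in WT-S and 161, 171, 171 and 171 in 3xTg-S. These values moved within a narrow band in all groups. Cacna1e was at 554, 453, 439.5 and 467 CPM in WT-8M and 469, 440.1, 489.9 and 325 CPM in 3xTg-8M. At 10 months it had 500.2, 422, 514 and 503 CPM in WT-D, 441, 472, 430.1 and 491 in 3xTg-D, 443, 446 and 432 in WT-S and 401, 372, 483 and 440.5 in 3xTg-S. The lowest Cacna1e value was that of 3xTg-8M replicate 4.

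Kcnc2 (Kv3.2), a channel of fast-spiking interneurons, was at 133, 131, 120.1 and 129 CPM in WT-8M and 137, 123, 129.8 and 132 CPM in 3xTg-8M. At 10 months it had 121, 126, 139 and 111 CPM in WT-D, 142, 144, 133 and 129 in 3xTg-D, 127, 117 and 104 in WT-S and 124, 138, 128 and 126 in 3xTg-S. The lowest Kcnc2 library was WT-S replicate 3. Kcnh3 was at 60.8, 53.5, 60.0 and 54.3 CPM in WT-8M and 65.7, 60.3, 74.2 and 59.2 CPM in 3xTg-8M. In the infused mice it was at 57.5, 64.5, 59.3 and 71.5 CPM in WT-D, 56.0, 66.0, 54.7 and 64.7 in 3xTg-D, 63.7, 64.0 and 70.7 in WT-S and 60.7, 57.7, 60.4 and 63.3 in 3xTg-S. Among the infused groups, WT-S lay just above 3xTg-S, and the other pairs overlapped.

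Summed over a family, the Kv1 genes had 485 ± 38.5 CPM in WT-8M and 409 ± 34.3 in 3xTg-8M (mean ± SD over libraries). The Kv1 sum was 450 ± 14.2 CPM in WT-D, 420 ± 4.92 in 3xTg-D, 424 ± 19.4 in WT-S and 392 ± 13.3 in 3xTg-S. At each treatment the 3xTg mean was thus the lower of the pair. The Nav sum was 1101 ± 84.7 CPM in WT-8M and 1009 ± 101 in 3xTg-8M, and at 10 months 1119 ± 41.2 in WT-D, 1079 ± 14.9 in 3xTg-D, 1034 ± 7.79 in WT-S and 978 ± 72.0 in 3xTg-S. Here the means were lower in 3xTg at each treatment and lower under the inhibitor in each strain. The Kv3 sum stayed between means of 432 CPM (WT-8M) and 451 CPM (3xTg-8M) with no constant order by strain. All 41 members together summed to 4703 ± 240.4 CPM in WT-8M and 4438 ± 488 in 3xTg-8M. They summed to 4761 ± 127 CPM in WT-D, 4593 ± 107 in 3xTg-D, 4520 ± 21.2 in WT-S and 4292 ± 328 in 3xTg-S. The large SD in 3xTg-8M and 3xTg-S goes with the low sums of 3xTg-8M replicate 4 and 3xTg-S replicate 2.

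**Figure D2:**
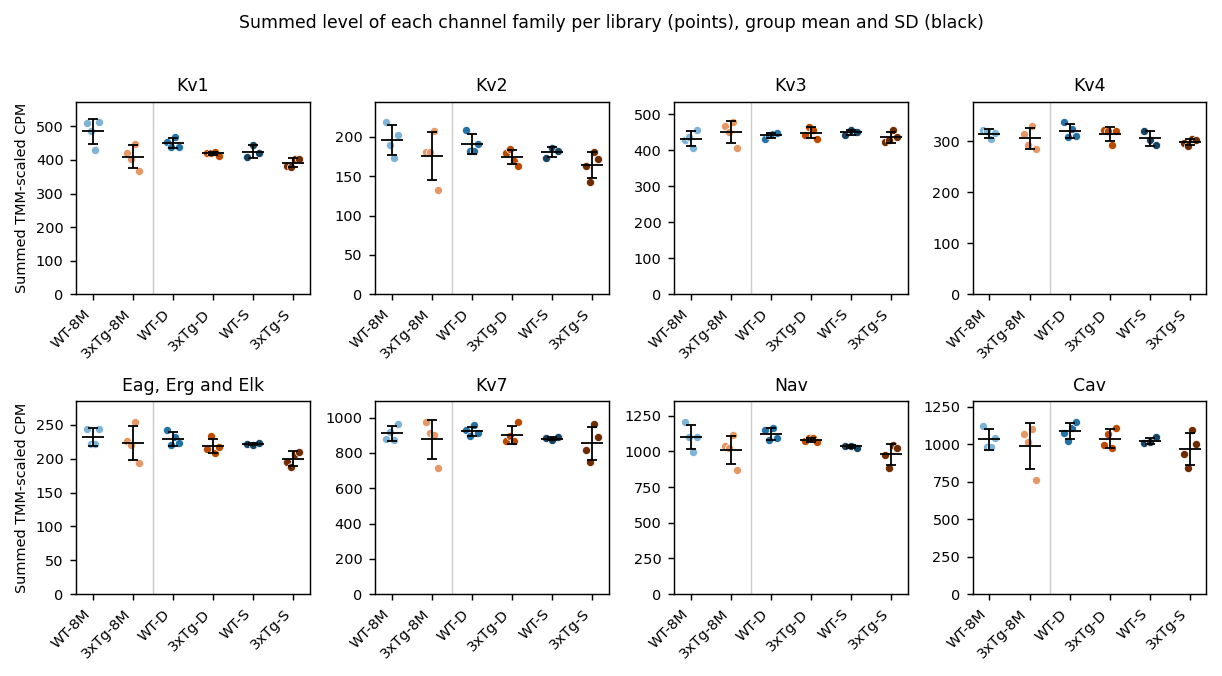
Summed TMM-scaled CPM of the members of each of the 8 families (1 panel each, y axis from 0) in every library (points), by group, with the group mean and SD in black. The Kv1 sum averaged 409 CPM in 3xTg-8M and 485 in WT-8M, and the Kv3 sums show no constant order by strain.

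At 8 months, without treatment, 2 of the 41 members differed between strains, both lower in 3xTg mice. They were Kcna4, which encodes the fast-inactivating axonal channel Kv1.4, and Scn7a, which encodes Nax. Over all 15483 genes tested, 2.58% were called at an adjusted p under 0.05. Kcna4 was at 30.5, 27.8, 30.0 and 28.6 CPM in 3xTg-8M and at 46.8, 47.5, 37.3 and 39.2 CPM in WT-8M. All 4 transgenic libraries lay below all 4 WT libraries, and the WT pair of replicates 1 and 2 lay above the other WT libraries. The means were 29.3 ± 1.26 and 42.7 ± 5.204 CPM (SD, n = 4 each), a difference of -31% (log2 fold change -0.54, SE 0.085, adjusted p 0.00549 by the edgeR quasi-likelihood test with Benjamini-Hochberg adjustment). Kcna4 was called under all 12 alternatives, with adjusted p between 6.44e-06 and 0.0247. With the trend of length and GC content removed its log2 fold change was -0.47.

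Scn7a was at 4.64, 4.71, 5.14 and 5.60 CPM in 3xTg-8M and at 8.11, 9.42, 7.39 and 6.64 CPM in WT-8M. These groups did not overlap either, but the level was low and the WT libraries were spread. The means were 5.03 ± 0.445 and 7.89 ± 1.19 CPM (log2 fold change -0.64, SE 0.14, adjusted p 0.0347 by edgeR). The call held under 5 of 12 alternatives, with adjusted p between 0.00456 and 0.130. It was lost with the length and GC trend removed (adjusted p 0.0950) and without any one of 6 libraries, namely replicates 1, 2 and 3 of WT-8M and of 3xTg-8M.

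Kcna4 lies on chr2:107290639-107298502 (GRCm38, forward strand) and Scn7a on chr2:66673425-66784914 (reverse strand). Scn7a is the last of a run of sodium channel genes on chromosome 2, in which Scn3a starts at 65457118, Scn2a at 65620771, Scn1a at 66270778 and Scn9a at 66480080. Because these 2 genes were the members called at 8 months, the 250 bases before their transcription starts are shown from RefSeq (GRCm38.p6), 5′ to 3′ on the strand of the gene. Capitals mark a GC box (GGGCGG on either strand), the binding motif of Sp-type factors.
Kcna4 (chr2:107290339-107290588, forward strand): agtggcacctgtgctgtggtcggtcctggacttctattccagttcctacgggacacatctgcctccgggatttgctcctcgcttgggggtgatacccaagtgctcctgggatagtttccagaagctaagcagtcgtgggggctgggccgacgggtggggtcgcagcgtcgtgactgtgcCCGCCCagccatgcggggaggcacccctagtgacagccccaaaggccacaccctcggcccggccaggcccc
Scn7a (chr2:66784911-66785160, reverse strand): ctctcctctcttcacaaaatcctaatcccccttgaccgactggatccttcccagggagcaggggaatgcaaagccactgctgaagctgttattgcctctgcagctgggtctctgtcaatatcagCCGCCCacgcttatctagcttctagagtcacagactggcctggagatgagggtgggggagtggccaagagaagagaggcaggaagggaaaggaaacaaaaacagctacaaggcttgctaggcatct
The GC content was 65.2% for Kcna4 and 53.2% for Scn7a, with 1 GC box in each and no CCAAT box. Neither window held the TATA box letters TATAAA. The full cyclic AMP response element, searched as TGACGTCA, was also absent from both. RefSeq windows were at hand for 27 of the 41 members, 36 windows in all. A GC box stood in 44.4% of them, against 32.7% of the 32851 windows of all genes. A TATA box stood in 5.56% against 12.4%, a CCAAT box in 27.8% against 33.8%, and a cyclic AMP response element in 0% against 1.55%. The left part of the RE1 element (TTCAGCACC), the motif of the neuronal repressor REST, stood in 1 window, that of Kcnh6, or 2.78% against 0.301%. These shares count windows, which can overlap, and 6 members had more than 1 window. By gene, 16 of the 27 members had a GC box, 8 a CCAAT box and 2 a TATA box. The share by gene over all genes was not counted. The motifs were searched on both strands, and a match is a description of the window only.

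Members of the same Kv1 family lay lower with Kcna4 at 8 months, without passing the adjusted test. Kcna1 (Kv1.1) was at 74.1, 70.5, 73.5 and 53.0 CPM in 3xTg-8M and 86.4, 83.9, 77.1 and 95.1 CPM in WT-8M. The groups did not overlap, and replicate 4 was the lowest of 3xTg-8M (log2 fold change -0.33, SE 0.10, unadjusted p 0.00744, adjusted p 0.126). Kcna1 was called under 2 of 12 alternatives, no filter on low counts and the DESeq2 likelihood ratio test. Kcna2 (Kv1.2) was at 228, 221, 247 and 203 CPM in 3xTg-8M and 289, 264, 224 and 277 CPM in WT-8M, with overlap (log2 fold change -0.22, SE 0.083, unadjusted p 0.0213, adjusted p 0.205). In the Kv1 family 5 of 6 members were lower, with a median log2 fold change of -0.28.

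Over all members, 6 were lower and 2 higher at an unadjusted p under 0.05, or 8 of 41, against 17.4% of all genes tested. The lower ones were Kcna4, Scn7a, Kcna1, Kcna2, Scn2a and Kcnh4, and the higher ones were the T-type calcium channel gene Cacna1i (log2 fold change 0.22, SE 0.091, adjusted p 0.238) and Kcnh3 (log2 fold change 0.19, SE 0.082, adjusted p 0.264). Kcnh4 (Elk1) had the largest log2 fold change, -0.96, at a low level and a smallest count of 7 in any library. In sign, 28 of 41 members were lower in 3xTg-8M, against 48.7% of all genes, and the median log2 fold change was -0.074 against 0.006 over all genes. Without 3xTg-8M replicate 4, 23 members were lower, 4 were lower and 5 higher at an unadjusted p under 0.05, and the median was -0.023. In that fit 50.2% of all genes were lower, and 9.73% were lower at that level. Cacna1i was called higher without that library. With the length and GC trend removed, 31 were lower, 6 were lower and 1 higher at that level, and the median was -0.066. Of all genes 46.3% were lower in that fit, and 7.93% were lower at that level. Without 3xTg-8M replicate 3, 10 were lower and 0 higher at that level, where 9.20% of all genes were lower at it. The 6 neuron markers had a median log2 fold change of -0.136, and 4 were lower in sign. Of the 8 markers of dentate, CA1 and CA3 neurons 3 were lower in sign (median 0.043), and of the 6 interneuron markers 2 (median 0.14). At an unadjusted p under 0.05, 2 of the 6 neuron markers were lower and 2 of the 5 microglia markers were higher, with none called. At that level the dentate, CA1 and CA3 list had 1 lower and 1 higher, and the interneuron list had 1 higher.

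**Figure D3:**
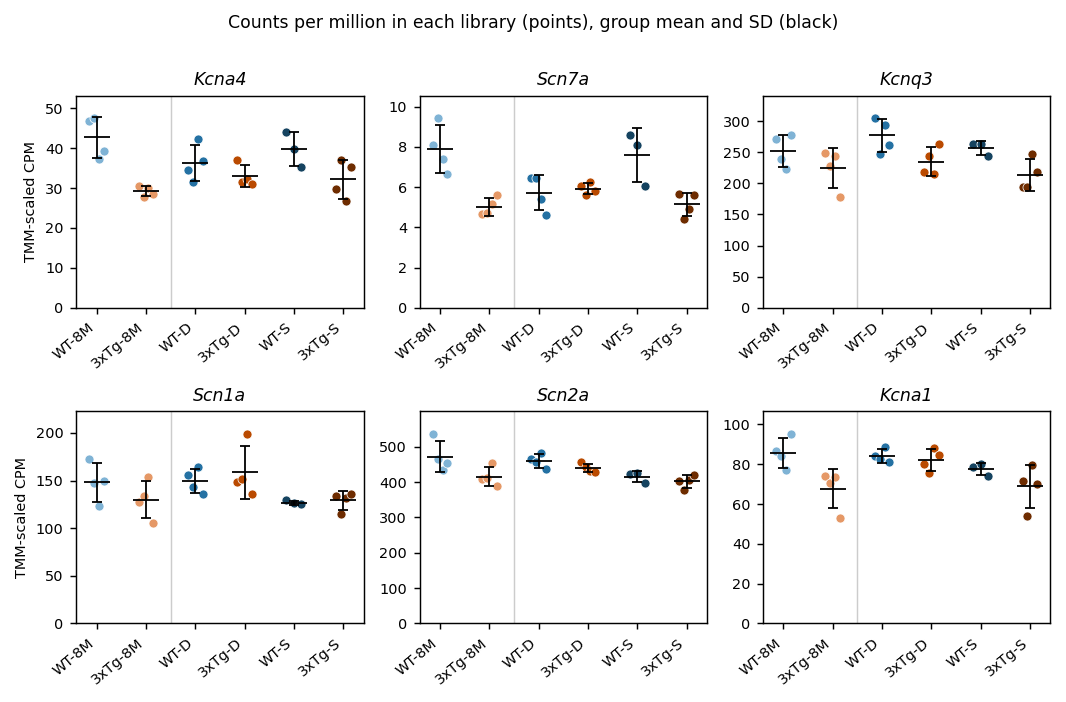
TMM-scaled CPM (y axis from 0) of Kcna4, Scn7a, Kcnq3, Scn1a, Scn2a and Kcna1, 1 panel each, in every library (points), by group, with the group mean and SD in black. The Kcna4 and Scn7a points of 3xTg-8M lie wholly below WT-8M, and the Scn2a points of both inhibitor groups lie below those of both vehicle groups.

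At 10 months under vehicle, no member was called between 3xTg-D and WT-D by edgeR, nor by the DESeq2 likelihood ratio test, where 1.39% of 15528 genes were called by edgeR. At an unadjusted p under 0.05 there were 2 members, both lower in 3xTg-D, against 13.1% of all genes. They were Kcnq3, a subunit of the M-current channel, and Kcnh4. Kcnq3 was at 218, 244, 215 and 263 CPM in 3xTg-D and 305, 248, 294 and 263 CPM in WT-D. The highest 3xTg-D library reached the WT-D range (log2 fold change -0.23, SE 0.079, unadjusted p 0.0121, adjusted p 0.219). Kcnh4 was at 1.08, 1.49, 0.887 and 1.63 CPM in 3xTg-D and 2.03, 2.34, 1.40 and 2.52 CPM in WT-D, with overlap (log2 fold change -0.71, SE 0.26, unadjusted p 0.0173, adjusted p 0.252). Kcna4, called at 8 months, was at 36.9, 31.4, 32.4 and 31.0 CPM in 3xTg-D and 34.4, 31.5, 42.4 and 36.8 CPM in WT-D, and these groups overlapped (log2 fold change -0.14, SE 0.093, adjusted p 0.591). Kcnc2 was the member of the next smallest p, with values that lay mostly higher in 3xTg-D (log2 fold change 0.14, SE 0.067, unadjusted p 0.0539, adjusted p 0.393). In sign, 31 of 41 members were lower in 3xTg-D, against 51.0% of all genes, with a median log2 fold change of -0.060. With the length and GC trend removed 30 were lower, and 8 were lower and 0 higher at an unadjusted p under 0.05. Of all genes 55.0% were lower in that fit, and 8.77% were lower at that level. At that level 4 were lower without WT-D replicate 2 (5.29% of all genes) and 1 without 3xTg-D replicate 3 (5.09%). Of the 8 markers of dentate, CA1 and CA3 neurons 5 were lower, and of 5 microglia markers 3 were higher, at an unadjusted p under 0.05 with none called. At that level the 3 choroid plexus markers tested were also higher, with a median log2 fold change of 1.02 and none called. So were 2 of 6 thalamus markers and 1 of 5 astrocyte markers, with none called. The interneuron marker Pvalb was called lower, a call lost without replicate 1, 2 or 4 of 3xTg-D, with the run of 4 consecutive animal numbers as a block and in the joint fit of 10 months (adjusted p up to 0.102). The interneuron list as a whole was divided, with 3 of 6 markers lower in sign and a median log2 fold change of -0.020. At an unadjusted p under 0.05, 2 of them were lower and 1 was higher. The part of these cells in the members' values was not tested.

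When the strains were compared with inhibitor in both (3xTg-S and WT-S), again no member was called by edgeR or by the DESeq2 likelihood ratio test, where 1.32% of 15664 genes were called by edgeR. At an unadjusted p under 0.05 there were 5 members, all lower in 3xTg-S, namely Scn7a, Kcnq3, Kcnc4, Cacna1g and Kcna4. Over all genes 10.6% passed that level in either direction, and 5.18% passed it and were lower. Scn7a was at 5.65, 4.41, 4.90 and 5.59 CPM in 3xTg-S and 8.59, 8.09 and 6.08 CPM in WT-S. No 3xTg-S library reached the WT-S range (log2 fold change -0.56, SE 0.16, unadjusted p 0.00486, adjusted p 0.169). Kcnq3 was at 194, 195, 248 and 218 CPM in 3xTg-S and 263, 263 and 245 CPM in WT-S, with replicate 3 of 3xTg-S inside the WT-S range (log2 fold change -0.27, SE 0.081, unadjusted p 0.00652, adjusted p 0.195). Without that library Kcnq3 was called (adjusted p 0.0456), where adjusted p over the 13 alternatives ran from 0.0141 to 0.621. Kcnc4 (Kv3.4) was at 44.1, 50.5, 42.9 and 46.0 CPM in 3xTg-S and 48.6, 60.7 and 53.3 CPM in WT-S, with overlap (log2 fold change -0.24, SE 0.087, unadjusted p 0.017, adjusted p 0.307). Kcna4 was at 29.8, 37.1, 26.6 and 35.1 CPM in 3xTg-S and 44.0, 39.8 and 35.4 CPM in WT-S, where replicate 2 of 3xTg-S lay inside the WT-S range (log2 fold change -0.30, SE 0.12, unadjusted p 0.0231, adjusted p 0.348).

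In sign, 38 of 41 members were lower in 3xTg-S than in WT-S, against 48.8% of all genes, with a median log2 fold change of -0.12. Without 3xTg-S replicate 2 there were 33 lower, of which 4 passed the unadjusted level, and the median was -0.072. With the trend of length and GC content removed 33 were lower, 6 of them at that level, and the median was -0.088. In turn 50.5% and 50.6% of all genes were lower, and 5.34% and 5.97% were lower at that level. Without 3xTg-S replicate 3, 10 were lower at that level, against 5.42% of all genes. Markers of other cells moved in the same comparison. The 6 oligodendrocyte markers summed to 4918 to 5649 CPM in 3xTg-S and 3309 to 4253 CPM in WT-S, without overlap, and 2 of 6 were called higher. The 5 microglia markers summed to 354 to 447 CPM in 3xTg-S and 310.0 to 331 CPM in WT-S, with 1 of 5 called higher. Of the 8 markers of dentate, CA1 and CA3 neurons 3 were lower at an unadjusted p under 0.05, and Wfs1 of CA1 neurons was called lower, a call lost with the block of animal numbers (adjusted p 0.124). The 6 neuron markers overlapped, at 8026 to 9469 CPM in 3xTg-S and 8892 to 9978 CPM in WT-S, and none was at 0. The part of cell composition in the members' values was not tested.

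The 3 strain comparisons (untreated, vehicle and inhibitor) share no library. Over them, 22 of 41 members (53.7%) were lower in 3xTg each time, against 20.0% of the 15194 genes tested in all 3. Higher each time were 2 members, among them Kcnc2, where 20.3% of genes were, and 17 members were mixed. Of the Kv1 family 5 of 6 were lower each time, as were 2 of 2 Kv2, 3 of 4 Kv7 and 4 of 7 Eag, Erg and Elk genes. The share was smaller in the Nav family, with 3 of 7, the Cav family, with 3 of 8, the Kv4 family, with 1 of 3, and the Kv3 family, with 1 of 4. These are counts of signs and not of size, and only Kcna4 and Scn7a, at 8 months, were called in any of the 3 comparisons. The 6 neuron markers were also mostly lower, with 4, 6 and 5 of 6 in turn and medians of -0.136, -0.115 and -0.069. The 8 markers of dentate, CA1 and CA3 neurons had 3, 7 and 8 lower, with medians of 0.043, -0.25 and -0.14. The 6 interneuron markers had 2, 3 and 5 lower, with medians of 0.14, -0.020 and -0.088. The members' medians were -0.074, -0.060 and -0.12. The part of a shift shared with other neuronal genes was not tested. With the trend of length and GC content removed, the members lower were 31, 30 and 33 in turn, against 46.3%, 55.0% and 50.6% of all genes. Again 22 were lower each time, against 23.3% of genes. Without 3xTg-8M replicate 4 and 3xTg-S replicate 2, 17 were lower each time, against 21.05% of genes.

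**Figure D4:**
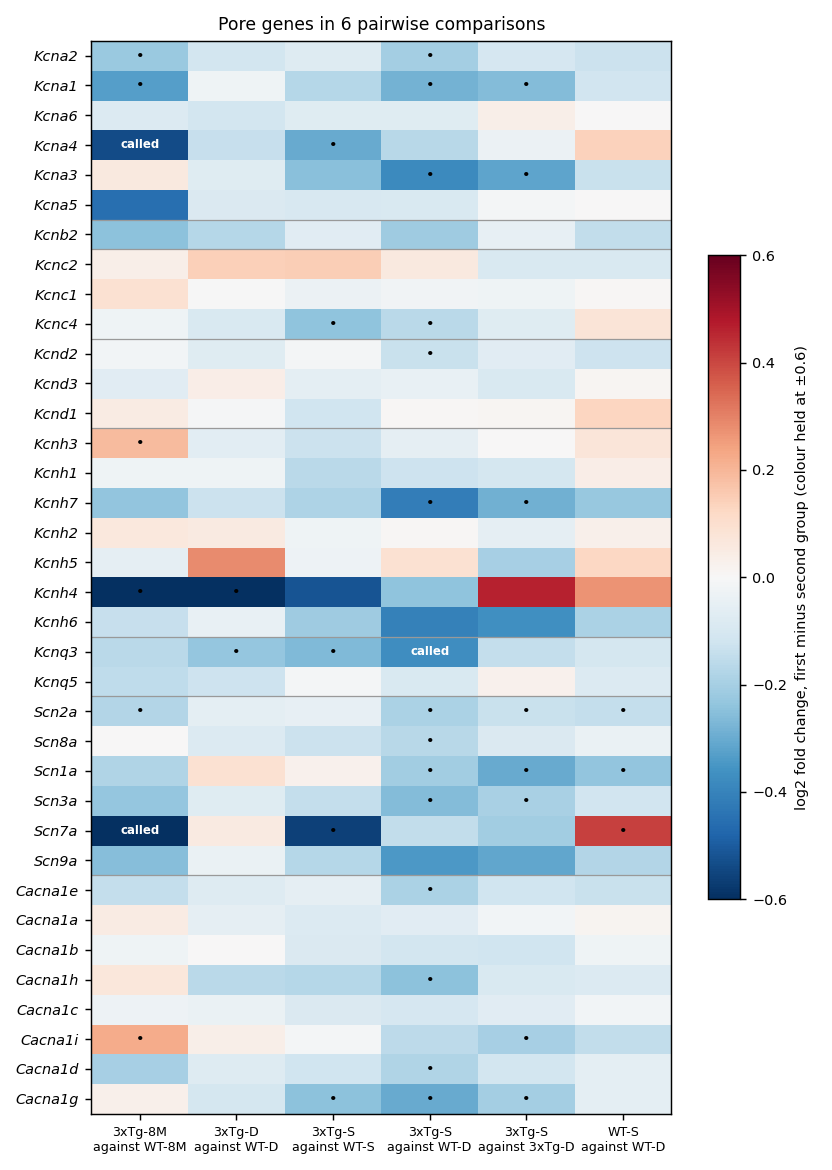
Log2 fold change (colour, first group minus second, held at ±0.6) of 36 of the 41 members (vertical, by family) in the 6 pairwise comparisons (horizontal), where the word called marks an adjusted p under 0.05 and a dot an unadjusted p under 0.05. Blue, for lower in the first group, is more frequent than red in every column, and the 3 called cells are Kcna4 and Scn7a at 8 months and Kcnq3 in 3xTg-S against WT-D.

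The pore subunits work with auxiliary and modulatory subunits and with scaffold proteins, of which 44 genes were listed. The list held 4 genes of the axon initial segment scaffold, which are not channel subunits, and all 44 are referred to as listed subunits below. Among them, 2 were called between strains in each of the 3 comparisons that share no library. The share of all genes called in all 3 was not computed. In the single comparisons 2.58%, 1.39% and 1.32% of all genes tested were called. Kcnip3 encodes KChIP3, a calcium-binding partner of Kv4 channels. It was at 47.0, 46.1, 49.9 and 47.8 CPM in 3xTg-8M and 77.6, 67.1, 76.9 and 51.9 CPM in WT-8M (log2 fold change -0.51, SE 0.12, adjusted p 0.0404 by edgeR). Under vehicle it was at 41.7, 42.2, 38.6 and 44.4 CPM in 3xTg-D and 53.7, 60.8, 56.5 and 66.0 CPM in WT-D (log2 fold change -0.50, SE 0.072, adjusted p 0.00295). Under the inhibitor it was at 46.4, 48.2, 44.8 and 48.5 CPM in 3xTg-S and 71.8, 64.7 and 54.9 CPM in WT-S (log2 fold change -0.44, SE 0.09, adjusted p 0.0355). The strains did not overlap in any of the 3. The vehicle call held under 14 of 14 alternatives, the 8-month call under 5 of 12 and the inhibitor call under 6 of 13. At 8 months the call was lost without any one library other than WT-8M replicate 4 (adjusted p up to 0.129). Under the inhibitor it was lost without any one library other than WT-S replicate 3 (adjusted p up to 0.133) and with the run of 4 consecutive animal numbers as a block (adjusted p 0.215).

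Cntnap2, one of the scaffold genes, encodes Caspr2, which clusters Kv1 channels beside the node of Ranvier. The study had already named Cntnap2 among its differing genes at 8 months. It was at 154, 150.1, 154 and 142 CPM in 3xTg-8M and 177, 190.3, 174 and 189 CPM in WT-8M (log2 fold change -0.27, SE 0.055, adjusted p 0.0238 by edgeR). Under vehicle it was at 152, 158, 128 and 153 CPM in 3xTg-D and 186, 184, 188 and 174 CPM in WT-D (log2 fold change -0.31, SE 0.063, adjusted p 0.0367). Under the inhibitor it was at 136, 134, 151 and 153 CPM in 3xTg-S and 181, 175 and 172 CPM in WT-S (log2 fold change -0.30, SE 0.063, adjusted p 0.0468). Here too all 3xTg libraries lay below all WT libraries of the same treatment, and the calls held under 7 of 12, 8 of 14 and 4 of 13 alternatives. The 8-month call was lost without replicate 2 or 4 of WT-8M, without replicate 1 or 2 of 3xTg-8M and with the length and GC trend removed (adjusted p up to 0.183). The vehicle call was lost without replicate 1, 2 or 3 of WT-D, without replicate 1 or 4 of 3xTg-D and with the block (adjusted p up to 0.0867). The inhibitor call was lost without any one library (adjusted p up to 0.204), with the block (adjusted p 0.410) and with DESeq2 size factors (adjusted p 0.0511).

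Kcnv1, a silent subunit that joins Kv2 channels, was called at 8 months, with 49.4, 43.8, 38.7 and 46.6 CPM in 3xTg-8M and 69.8, 62.4, 57.9 and 63.7 CPM in WT-8M (log2 fold change -0.50, SE 0.082, adjusted p 0.0067 by edgeR, called under 12 of 12 alternatives). It was not called between strains at 10 months. Under the inhibitor it was again lower without overlap, at 51.1 to 58.4 CPM in 3xTg-S and 60.4 to 69.9 CPM in WT-S, while under vehicle the strains overlapped. With inhibitor in both strains, beta subunits of sodium channels differed in opposite directions. Scn4b was at 19.5, 21.9, 21.7 and 20.1 CPM in 3xTg-S and 27.4, 34.2 and 34.5 CPM in WT-S (log2 fold change -0.63, SE 0.09, adjusted p 0.00377, called under 12 of 13 alternatives and lost with the block, at an adjusted p of 0.0782). Under vehicle Scn4b was also lower without overlap, at 15.8 to 22.0 CPM in 3xTg-D and 22.6 to 36.1 CPM in WT-D, but was not called. At 8 months the strains overlapped in Scn4b. Scn2b was at 257, 254, 271 and 268 CPM in 3xTg-S and 224, 183 and 178 CPM in WT-S (log2 fold change 0.43, SE 0.08, adjusted p 0.0235, called under 7 of 13). The Scn2b call was lost without replicate 2 or 3 of WT-S, without replicate 1, 3 or 4 of 3xTg-S and with the block (adjusted p up to 0.154). In the list as a whole, 3 genes were called at 8 months, 2 under vehicle and 4 under the inhibitor, of 39 tested. Over all genes tested edgeR called 2.58%, 1.39% and 1.32% in turn. Of the list, 5, 3 and 4 were called by the DESeq2 likelihood ratio test. The medians of the log2 fold change were -0.069, -0.093 and -0.12.

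Inhibitor-treated 3xTg mice were also set against vehicle-treated WT mice, a comparison that shares WT-D with the vehicle comparison and 3xTg-S with the inhibitor comparison. One member was called, Kcnq3, lower in 3xTg-S, where 2.29% of 15567 genes were called. It was at 194, 195, 248 and 218 CPM in 3xTg-S and 305, 248, 294 and 263 CPM in WT-D. The groups overlapped narrowly, as the highest 3xTg-S library (248.1 CPM) lay just above the lowest WT-D library (247.6 CPM). The means were 214 ± 25.5 and 277 ± 26.7 CPM (log2 fold change -0.37, SE 0.085, adjusted p 0.0421 by edgeR). The call held under 8 of 14 alternatives, with adjusted p between 1.41e-05 and 0.146. Kcnh7 alone was called without WT-D replicate 4. The Kcnq3 call was lost without any one of 6 libraries, replicates 1, 3 and 4 of WT-D and replicates 1, 2 and 4 of 3xTg-S, and it held with the trend of length and GC content removed (log2 fold change -0.28, adjusted p 0.034). The log2 fold change of Kcnq3 was -0.23 for 3xTg-D against WT-D and -0.27 for 3xTg-S against WT-S, which include libraries of further groups.

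Further members lay lower without being called. There were 16 lower and 0 higher at an unadjusted p under 0.05, against 16.9% of all genes in either direction and 7.88% of all genes that passed and were lower. The next in order were Kcna2 (log2 fold change -0.20, SE 0.055, unadjusted p 0.00302, adjusted p 0.0848) and Kcnh7, which encodes Erg3 (log2 fold change -0.41, SE 0.12, unadjusted p 0.00397, adjusted p 0.0964). Kcna2 was at 203, 208, 223 and 218 CPM in 3xTg-S and 249, 233, 265 and 237 CPM in WT-D, without overlap. Kcnh7 was at 58.5, 65.7, 61.3 and 73.3 CPM in 3xTg-S and 106, 78.1, 93.2 and 68.8 CPM in WT-D, where one WT-D library lay inside the 3xTg-S range. The 16 comprised 4 of 7 Nav, 4 of 8 Cav and 3 of 6 Kv1 genes. In sign 36 of 41 members were lower, against 48.8% of all genes, with a median of -0.17. Without 3xTg-S replicate 2 there were 34 lower, 11 of them at that level, and a median of -0.13. With the trend removed there were 33 lower, 12 of them at that level, and a median of -0.10. In turn 49.0% and 53.7% of all genes were lower, and 6.55% and 9.37% were lower at that level. Of the 39 listed subunits tested 4 were called, all lower, where 2.29% of all genes were called. They were Kcnf1, a silent Kv2 partner (log2 fold change -0.44, SE 0.093, adjusted p 0.0298), and again Kcnip3 (log2 fold change -0.33, SE 0.07, adjusted p 0.0292), Cntnap2 (log2 fold change -0.35, SE 0.056, adjusted p 0.00608) and Scn4b (log2 fold change -0.51, SE 0.12, adjusted p 0.048). The 4 subunit calls held under 9, 8, 14 and 5 of 14 alternatives, and those of Kcnf1, Kcnip3 and Scn4b were lost without single libraries of either group (adjusted p up to 0.0833, 0.100 and 0.147), and that of Scn4b also with the block (adjusted p 0.0558) and with the trend removed (adjusted p 0.0709). In this comparison all 6 oligodendrocyte markers were higher at an unadjusted p under 0.05 and 2 were called. Of 5 microglia markers 2 were called higher, and Wfs1 was called lower.

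Within each strain, the inhibitor was compared with its vehicle. In 3xTg mice no member was called by edgeR or the DESeq2 likelihood ratio test, and over 15530 genes edgeR called 0%. At an unadjusted p under 0.05, 8 members were lower and 0 higher in 3xTg-S, against 11.2% of all genes in either direction and 5.51% that were lower. The 3 with the smallest p were Cacna1i, Kcnh7 and Scn1a. Cacna1i (Cav3.3) was at 54.3, 51.5, 59.3 and 58.6 CPM in 3xTg-S and 61.6, 66.8, 62.5 and 65.3 CPM in 3xTg-D, with no overlap (log2 fold change -0.20, SE 0.059, unadjusted p 0.00484, adjusted p 0.378). Kcnh7 was at 58.5, 65.7, 61.3 and 73.3 CPM in 3xTg-S and 83.6, 90.6, 70.3 and 70.4 CPM in 3xTg-D, with overlap (log2 fold change -0.29, SE 0.093, unadjusted p 0.009, adjusted p 0.378). Scn1a was at 134, 115, 132 and 136 CPM in 3xTg-S and 148, 152, 199 and 136 CPM in 3xTg-D, with narrow overlap, as the highest 3xTg-S library lay just above the lowest 3xTg-D library (log2 fold change -0.30, SE 0.10, unadjusted p 0.0121, adjusted p 0.378). In sign 36 of 41 were lower, against 50.5% of all genes, with a median of -0.099. Without 3xTg-S replicate 2 there were 32 lower, 6 of them at that level. With the trend removed there were 29 lower, and only 3 of them were at that level. In turn 51.1% and 50.1% of all genes were lower, and 4.29% and 2.36% were lower at that level. Without replicate 1 or 2 of 3xTg-D there were 5 lower at that level, against 4.53% and 3.84% of all genes. The 6 oligodendrocyte markers all had higher means with inhibitor, of which 3 reached the unadjusted level and 0 were called by edgeR, and 0 of 5 microglia markers reached that level. The 6 listed thalamus markers were all lower in sign, with a median of -0.18, and 0 reached that level. Of the 6 neuron markers 2 were lower in sign, with a median of 0.044. The part of cell or tissue composition in the members' values was not tested.

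In WT mice no member was called by either test, and over 15724 genes edgeR called 0%. At an unadjusted p under 0.05, 2 members were lower and 1 higher in WT-S, against 3.42% of all genes, and all 3 were sodium channel genes. Scn1a was at 129, 126 and 125 CPM in WT-S and 156, 144, 164 and 136 CPM in WT-D, without overlap (log2 fold change -0.24, SE 0.069, unadjusted p 0.00631, adjusted p 0.981). Scn2a was at 423, 426 and 398 CPM in WT-S and 465, 457, 481 and 436 CPM in WT-D, again without overlap (log2 fold change -0.14, SE 0.055, unadjusted p 0.0269, adjusted p 0.981). Scn7a, the higher one, was at 8.59, 8.09 and 6.08 CPM in WT-S and 6.44, 6.43, 5.41 and 4.62 CPM in WT-D, with overlap (log2 fold change 0.41, SE 0.17, unadjusted p 0.0357, adjusted p 0.981). In sign 25 of 41 were lower, against 49.4% of all genes. With the trend removed 27 were lower, and 1 was lower and 2 higher at an unadjusted p under 0.05. Of all genes 54.9% were lower in that fit, and 1.71% were lower at that level. At that level 1 was lower without WT-D replicate 1 or WT-S replicate 3 and 4 without WT-D replicate 2. Of all genes 0.781%, 0.920% and 1.35% were then lower at that level, in turn. With WT-D replicate 3 or WT-S replicate 1 or 2 left out, 0 members were higher at that level.

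The WT and the 3xTg comparison of inhibitor with vehicle share no library. In both, 24 of 41 members (58.5%) were lower under the inhibitor, against 31.9% of the 15302 genes tested in both, 4 were higher (Kcnh3, Kcnh4, Kcna6 and Kcnd1) and 13 were mixed. By family these were 6 of 7 Nav and 7 of 8 Cav genes, 3 of 6 Kv1, 2 of 2 Kv2 and 2 of 4 Kv7 genes. Of the Eag, Erg and Elk genes 2 of 7 were lower in both, and of the Kv3 and Kv4 genes 1 of 4 and 1 of 3. With the trend of length and GC content removed 21 members were lower in both, against 31.1% of genes, and without 3xTg-S replicate 2 there were 22, against 31.8% of genes.

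With both strains in one fit and strain as a term, no member was called for the inhibitor by edgeR, where 0% of 16262 genes were called. The DESeq2 likelihood ratio test called 2, Scn1a and Scn2a. Lower at an unadjusted p under 0.05 were 11 members, and 0 were higher, against 13.6% of all genes in either direction and 6.79% that were lower. Scn2a was at 423, 426 and 398 CPM in WT-S and 404, 376, 407 and 419.8 CPM in 3xTg-S under the inhibitor. Under vehicle it was at 465, 457, 481 and 436 CPM in WT-D and 456, 442, 432 and 429 CPM in 3xTg-D. All 7 inhibitor libraries lay below all 8 vehicle libraries, with means of 408 ± 17.3 and 449.6 ± 18.2 CPM. The difference was small (log2 fold change -0.14, SE 0.035, unadjusted p 0.000949, adjusted p 0.241 by edgeR) and was -0.05 on the log2 scale with the length and GC trend removed. Scn1a had means of 128 ± 7.01 and 154 ± 20.5 CPM (log2 fold change -0.27, SE 0.069, unadjusted p 0.000876, adjusted p 0.241), and -0.19 with the trend removed. Cacna1i was next in order, with 58.4, 57.0 and 53.8 CPM in WT-S and 69.6, 64.4, 56.1 and 60.1 CPM in WT-D beside the 3xTg values above (log2 fold change -0.18, SE 0.049, unadjusted p 0.002, adjusted p 0.241). In sign 34 of 41 members were lower, against 49.9% of all genes, with a median of -0.077. Without 3xTg-S replicate 2 these became 28 and -0.045, with 8 lower and 1 higher at an unadjusted p under 0.05. With the trend removed they became 28 and -0.032, with 4 lower and 0 higher at that level. In turn 49.6% and 52.7% of all genes were lower, and 5.52% and 3.35% were lower at that level. Without replicate 2 or 3 of WT-S there were 7 lower at that level, against 6.60% and 5.05% of all genes.

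The interaction of strain and inhibitor, which tests whether the inhibitor acted differently in the 2 strains, called no member by edgeR or by the DESeq2 likelihood ratio test and 0% of 16262 genes. Scn7a was the 1 member at an unadjusted p under 0.05, against 2.32% of all genes. Scn7a was higher in WT-S than in WT-D but was at 5.65, 4.41, 4.90 and 5.59 CPM in 3xTg-S and 6.03, 5.59, 6.27 and 5.81 CPM in 3xTg-D (log2 fold change -0.62, SE 0.21, unadjusted p 0.00837, adjusted p 1 for the interaction). Kcnh5 (Eag2) was among the 3 members of smallest p (log2 fold change -0.32, SE 0.23, unadjusted p 0.192, adjusted p 1). Its values were 7.19, 6.03, 8.94 and 7.26 CPM in WT-D, 6.75, 8.81 and 8.36 in WT-S, 7.33, 9.29, 10.3 and 8.72 in 3xTg-D and 7.75, 5.97, 10.3 and 7.34 in 3xTg-S. The Kcnh5 values overlapped between all of these groups. In sign 32 of 41 members had a negative interaction, against 49.4% of all genes, with 24 of 41 without 3xTg-S replicate 2 and 22 with the trend removed. Of the listed subunits, edgeR and the DESeq2 likelihood ratio test called 0 in each test of the inhibitor (in 3xTg mice, in WT mice, over both strains and as an interaction), where 3, 1, 3 and 1 had an unadjusted p under 0.05. These were of 39, 39, 40 and 40 tested, and 11.2%, 3.42%, 13.6% and 2.32% of all genes passed that level.

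**Figure D5:**
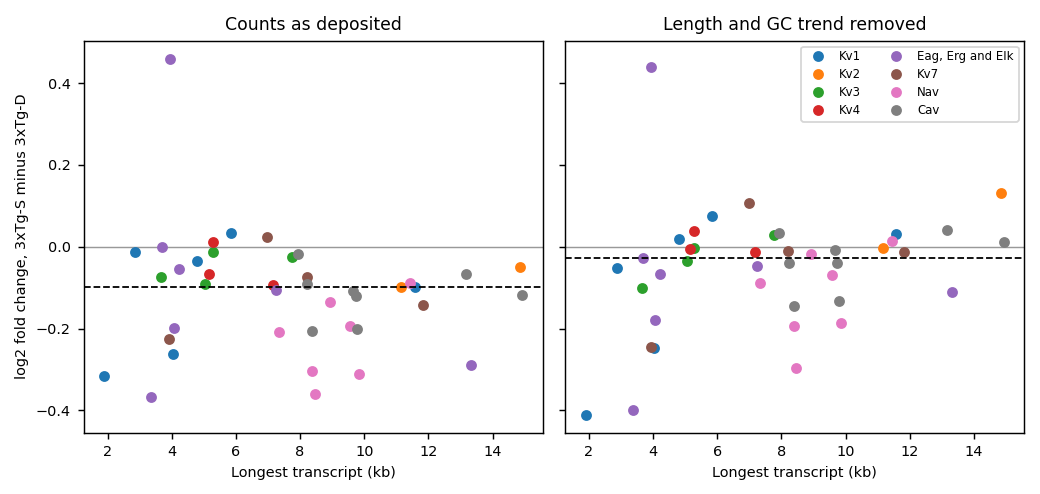
Log2 fold change of 3xTg-S against 3xTg-D (y axis) against the longest transcript in kb (x axis) for the 41 members, coloured by family, from the counts as deposited (left) and with the trend of length and GC content removed (right), with a dashed line at the members' median. The median is -0.099 on the left and -0.028 on the right.

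Transcript length and the change under the inhibitor were related over all genes in 3xTg mice. Spearman's rho across genes was -0.446 over all genes tested and -0.205 over the members, as a description, since genes of one library share its preparation. The median of the members went from -0.099 to -0.028 once the trend of length and GC content was taken out. Some exons are also shared with other genes, and no source used here says whether the counting used strand. Kcna6 overlaps Gm26673 over 2355 of its 5945 exonic nt and Kcnh7 overlaps Gca over 696 of 15226 nt. Values of such genes may hold reads of their neighbours.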

How the data were processed

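Per the labels and methods, total RNA of whole mouse hippocampus was extracted, and polyadenylated RNA was made into single-end libraries. The authors used Trimmomatic 0.35 for trimming and STAR 2.5.1b for alignment to GRCm38 with Gencode M23. The deposited values are raw read counts per gene, not normalized, filtered or pooled by the authors, and use of strand or of molecular identifiers in counting is not given in the sources used here. The 4 lines that name no gene (24.7% to 30.9% of reads) were left out.

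A comparison of 2 groups used only their libraries, in edgeR 4.0.16 in R 4.3.3 (filterByExpr, TMM, quasi-likelihood test, Benjamini-Hochberg adjustment over all genes tested). A gene was called at an adjusted p under 0.05, and an adjusted p is from this test unless an alternative is named. The inhibitor effect over both strains had strain as a term over 15 libraries, and the interaction was fitted on the same libraries. Printed CPM were scaled by TMM over all 23 libraries. Transcript length and GC content came from Gencode M21, which held 99.7% of the genes, and the trend removed was a spline of each with 5 degrees of freedom. Fits were tested on simulated data.

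Values in every library are given for members called in any comparison, for the member of highest CPM per kb in each family and for the 3 members of smallest p in each comparison. Called subunit genes are named. Results on some single genes are not reported here, while counts and sums over members include all 41. The members, the lists of subunit and marker genes, the tests and the alternatives were chosen with earlier results of these data known, and the study's text names Cntnap2. Counts of signs, promoter motifs and counts without the libraries of low length slope were added after seeing the data. Each library carries an animal number of its own in the labels, and p-values measure the spread between these animals. Alternatives were DESeq2 size factors, no filter, the DESeq2 1.42.0 likelihood ratio test, the trend removed, the run of 4 animal numbers as a block, a joint fit of all 15 libraries of 10 months, the study's threshold (unadjusted p under 0.01) and each replicate left out. Kcnh4 held as few as 7 counts in a library, and the part of library totals in its spread was not tested.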

Additional observations from a re-analysis of the deposited data

Results flagged for a closer look

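In 110 groups of 4 libraries (22 genes), 7 had 1 library far from the other 3, where chance alone gives 5.5. Cacna1e was at 422.382 CPM in WT-D replicate 2, below the 500.2 to 514 CPM of the other WT-D libraries. Cacna1i was at 51.1645 CPM in 3xTg-8M replicate 4, below 66.1 to 69.1 CPM. This library also had the lowest length slope at 8 months. Kcnd2 was at 160.1 CPM in 3xTg-D replicate 3, below 180.2 to 182 CPM, and at 161.313 CPM in 3xTg-S replicate 1, below 170.96 to 171.3 CPM. Kcnh4 was at 1.18671 CPM in 3xTg-S replicate 3, below 1.89 to 1.95 CPM. Among the subunit genes, Scn2b was at 248.728 CPM in 3xTg-D replicate 3, below 267 to 269 CPM, and Scn4b was at 15.8011 CPM in 3xTg-D replicate 1, below 21.5 to 22.0 CPM. No library was far from the others in more than 2 genes.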

How the results depend on the processing

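The number of members called between 3xTg-8M and WT-8M was 2, and it was 3 without a filter on low counts, by the DESeq2 likelihood ratio test and at an unadjusted p under 0.01, 1 with the length and GC trend removed and 1 to 3 with single libraries left out. Between 3xTg-S and WT-D it was 1, and it was 10 without a filter on low counts, 4 by the DESeq2 likelihood ratio test, 2 with all 15 libraries of 10 months in one fit, 5 at an unadjusted p under 0.01 and 0 to 1 with single libraries left out. For the inhibitor over both strains it was 0, and it was 2 without the filter, 2 by the DESeq2 test and 5 at an unadjusted p under 0.01. Of the other counts of 0, that of 3xTg-D against WT-D became 1 without the filter. That of 3xTg-S against WT-S became 3 without the filter, 2 at an unadjusted p under 0.01 and 0 to 1 with single libraries left out. That of 3xTg-S against 3xTg-D became 2 without the filter and 2 at an unadjusted p under 0.01. Those of WT-S against WT-D and of the interaction became 1 each at an unadjusted p under 0.01. The 47 results of single named genes (1 gene in 1 comparison) recomputed under these alternatives were chosen mainly by a call or a small p in these same data. The alternatives also reuse nearly all of the same libraries. The direction held in each of the 653 values, which is therefore no independent test. Of these values 555 stayed on their side of the threshold, 80 lost the call and 18 gained it. The cause of these changes was not tested. The labels give groups no shared replicate numbers, so the one block tried was the run of 4 consecutive animal numbers, and no label says that a run shares a litter or day. With it the counts of members called at 10 months were the same as without it, while 8 single-gene calls, of Cntnap2, Kcnip3, Scn2b, Scn4b, Pvalb and Wfs1, were lost (adjusted p 0.0558 to 0.410). At a mean above 0.5 CPM 42 genes would be members, and at a mean above 2 CPM 37. Over all genes, calls were 399, 216, 206 and 356 in the comparisons of 8 months, of vehicle, of inhibitor and of 3xTg-S with WT-D, against 854, 792, 729 and 1135 without the filter and 1066, 769, 649 and 1026 at an unadjusted p under 0.01. The DESeq2 test called 684, 386 and 577 genes in the first, second and last of these. With the block 78 genes were called in place of 206, and the joint fit of 10 months gave 355 in place of 216. Single libraries left out gave as few as 227, 125, 105 and 155 in the 4 comparisons, and at most 1 where the count was 0. Over all genes the inhibitor calls of 0 became 112 in 3xTg mice, 2 in WT mice and 94 over both strains without the filter, 14, 0 and 55 by the DESeq2 test, and 391, 59 and 650 at an unadjusted p under 0.01. The interaction count of 0 became 8 without the filter and 57 at an unadjusted p under 0.01. Kcnh4 and Kcnh6 held few counts, with as few as 7 and 8 in a library, and the part of depth in their results was not tested.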
